A study of Homo sapiens with 60 samples.

Results

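Transcripts of HT29 cells given Yijin-tang were set against those of HT29 cells given Soshiho-tang, both at the high dose of 500 µg/mL. The 5 libraries were 3 of Yijin-tang (replicates 1 to 3) and 2 of Soshiho-tang (replicates 2 and 3), chosen by their titles out of the 60 libraries of the series, and all genes were examined. Only differences seen in both Soshiho-tang libraries are named below. HT29 is a line of human colorectal adenocarcinoma cells. Both products were water extracts, as their titles state, left on the cells for 24 h, and messenger RNA was sequenced. The same extracts at 100 and 20 µg/mL (again 3 libraries of Yijin-tang and 2 of Soshiho-tang at each dose) and 3 libraries of the vehicle DMSO, also after 24 h, served for comparison. The sample labels give the vehicle as 0.1% DMSO and the text on the series gives 2%, and no percentage was found for the extract libraries. All 15 extract libraries carry the number 8 at the start of their library names, whereas the vehicle libraries carry C1. Extract and library set therefore cannot be told apart in any comparison with the vehicle, which is not so between the 2 extracts. The labels do not say whether replicates came from separate cultures, so the spread between libraries of 1 group may be technical. The p-values measure only such spread. It was estimated over 54 libraries in 19 groups, other extracts among them, and not from these 5 libraries alone.

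Yijin-tang and Soshiho-tang are old formulas of East Asian medicine, known in Chinese as Er Chen Tang and Xiao Chai Hu Tang. Traditional recipes of both include pinellia tuber, licorice and ginger. Recipes of Yijin-tang add citrus peel and poria, and those of Soshiho-tang add bupleurum root, skullcap root, ginseng and jujube. Genes driven by several sensors of the cell state recur among the results. The aryl hydrocarbon receptor (AHR) binds planar aromatic ligands, moves to the nucleus, pairs with ARNT and switches on cytochrome P450 genes of family 1. NRF2 is released from its inhibitor KEAP1 by reactive compounds and drives genes for glutathione, heme breakdown and NADPH. ATF4 is made when protein synthesis is restrained, and SREBP2 drives cholesterol synthesis when membrane sterol is low.

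The 5 libraries held 21434674 to 32138921 expected counts, within the range of all 60 (18161717 to 35128954). Markers of colon carcinoma epithelium were present in all 5, with 11 of 12 at 1 CPM or more (CPM, the standard unit of counts relative to library size, here after scaling for composition). Soshiho-tang replicate 3 stood apart. It held transcripts of blood cells, with HBB at 3.36, HLA-DRA at 3.93 and S100A9 at 3.27 CPM, against 0, 0 and 0 CPM in Soshiho-tang replicate 2 and at most 0.0470 CPM in the Yijin-tang libraries. Summed over 9 erythrocyte markers its level was 9.77 CPM, against 0.187 CPM in Soshiho-tang replicate 2 and 0.0776 to 0.329 CPM in the Yijin-tang libraries. Of 18 leukocyte markers 0 were at 0 CPM in replicate 3, against 11 in Soshiho-tang replicate 2 and 10 to 12 in the Yijin-tang libraries. Their summed level was 1399 to 1525 CPM with Yijin-tang, against 1240.1 CPM in replicate 2 and 1602 CPM in replicate 3 of Soshiho-tang, nearly all of it LYZ (lysozyme), at 1228 to 1559 CPM with either extract, and the part of these transcripts in the results was not tested. Mitochondrial genes held 8.31% of its counts, against 10.3 to 11.7% in the other 4 libraries. At the low dose, Yijin-tang replicate 2 also stood apart, with 8.72% of counts from the listed ribosomal protein genes against 3.96 to 4.20% in the other 2 low dose libraries of Yijin-tang.

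Genes called lower with Yijin-tang than with Soshiho-tang included 6 of 11 AHR targets, 11 of 19 redox targets of NRF2, 15 of 26 cholesterol genes and 11 of 27 immediate early genes, and those called higher included 15 of 41 interferon response genes. A gene was called when edgeR's quasi-likelihood test gave a Benjamini-Hochberg adjusted p under 0.05, both Soshiho-tang libraries lay on 1 side of all 3 Yijin-tang libraries, and the smaller of the differences from the single Soshiho-tang libraries was at least 0.5 times the larger. Of 16890 genes tested, 555 were called (3.29%), of which 242 were higher with Yijin-tang (1.43%) and 313 were lower (1.85%). At least 2-fold differences were found for 37 of the higher and 22 of the lower genes. A further 74 genes passed the adjusted p (629 in all or 3.72%, with 1.63% higher and 2.1% lower) and were not seen in both Soshiho-tang libraries, 49 of them with the larger difference in the library that held blood transcripts. The libraries of the 2 groups failed to overlap for 30.2% of all genes tested, so that a lack of overlap alone marks no gene out. Against the vehicle, whose 3 libraries both comparisons share, 1.05% of genes passed the adjusted p with Yijin-tang and 7.93% with Soshiho-tang, the last made up of 4.17% higher and 3.76% lower. Without Soshiho-tang replicate 3, 286 genes were called, 241 of them among the 555. Without the low dose Yijin-tang library that stood apart, 1288 were called, 554 of them among the 555. In a fit of the 5 compared libraries 269 were called, and in a fit of library set 8 alone 85.

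**Figure D1:**
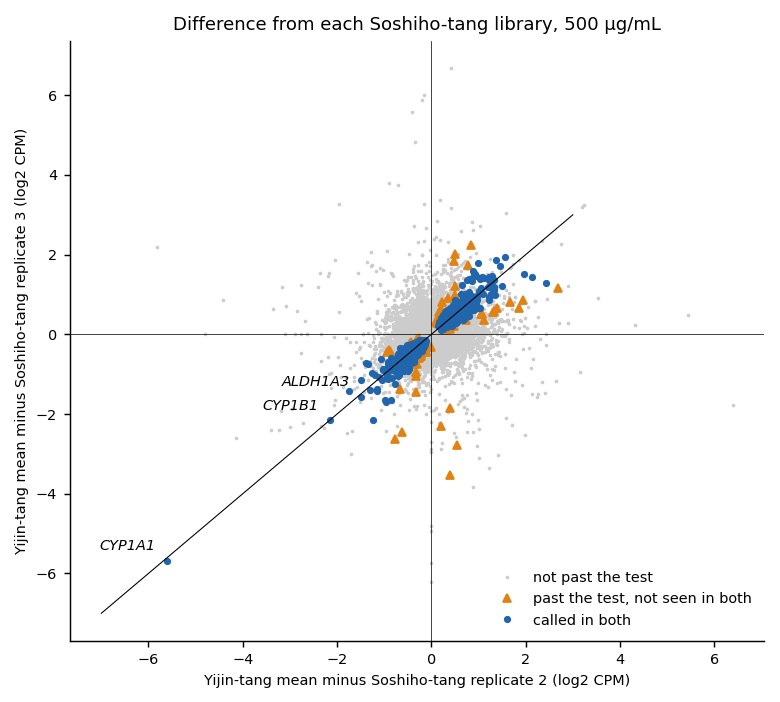
Each point is 1 of the genes tested, placed by the difference of the Yijin-tang mean from Soshiho-tang replicate 2 (horizontal) and from replicate 3 (vertical), in log2 CPM at 500 µg/mL, with the diagonal marking equal differences. The 555 called genes (blue) lie near the diagonal, the 74 genes past the adjusted p but not seen in both (orange triangles) lie away from it, and CYP1A1 is the lowest point on the diagonal. The nearness of called genes to the diagonal follows from the conditions of the call.

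Targets of AHR gave the widest gap between the extracts. CYP1A1, the cytochrome P450 enzyme that is the classical readout of AHR (ENSG00000140465, chromosome 15, 74719542 to 74725610, minus strand, GRCh38, GENCODE 29 annotation), was at 3.10, 3.10 and 3.57 CPM with Yijin-tang, against 163 and 172 CPM with Soshiho-tang and 0.476, 0.337 and 0.696 CPM in the vehicle. The groups were far apart, and both extracts lay above the vehicle. On the log2 scale the difference between the extracts was -5.68 ± 0.12 (standard error, adjusted p = 1.19e-31). CYP1B1, a related P450 that oxidizes estrogens and polycyclic hydrocarbons (ENSG00000138061, chromosome 2, 38066973 to 38109902, minus strand), was at 81.4, 84.8 and 89.0 CPM with Yijin-tang, against 379 and 381 CPM with Soshiho-tang and 45.8 to 48.2 CPM in the vehicle, a difference of -2.16 ± 0.07 (adjusted p = 1.37e-25). ALDH1A3, a dehydrogenase that makes retinoic acid, was at 38.2, 36.9 and 40.4 CPM with Yijin-tang, against 108 and 115 CPM with Soshiho-tang (-1.54 ± 0.07, adjusted p = 1.63e-19). In these 3 genes no library of 1 extract came near the range of the other.

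The battery also holds its own brakes. TIPARP, a mono-ADP-ribosyltransferase that turns AHR off, was at 103, 104 and 99.9 CPM with Yijin-tang, against 201 and 218 CPM with Soshiho-tang (-1.03 ± 0.11, adjusted p = 8.2e-09). AHRR, a repressor that competes with AHR for its partner, was at 7.64, 7.48 and 6.07 CPM with Yijin-tang, against 11.4 and 9.80 CPM with Soshiho-tang (-0.58 ± 0.15, adjusted p = 0.0191). The gap in AHRR was small next to that of CYP1A1, and its adjusted p was 0.214 without Soshiho-tang replicate 2 and 0.134 without Yijin-tang replicate 3. ALDH3A1, a dehydrogenase of aromatic aldehydes, was at 40.7, 36.9 and 38.4 CPM with Yijin-tang, against 79.8 and 84.9 CPM with Soshiho-tang (-1.09 ± 0.08, adjusted p = 3.46e-13).

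Of 11 AHR targets tested, 6 were called lower with Yijin-tang and 0 higher, with a median log2 difference of -0.58 against -0.00446 over all genes. The sequence to which AHR and ARNT bind, searched as TNGCGTG on both strands, was found in the 250 bases before the first start that RefSeq lists for 2 of the 9 AHR targets that had an entry, and for 4.53% of 27305 promoters. Among the called targets AHRR was the one with a match, and its sequence is shown for that reason, from RefSeq on GRCh38.p14 (chr5:321657-321713, plus strand), with the match in capitals. In the GENCODE 29 annotation AHRR begins further upstream, at 304176, so that this stretch lies within the gene there. An absent match in this short window says nothing about binding elsewhere.
AHRR: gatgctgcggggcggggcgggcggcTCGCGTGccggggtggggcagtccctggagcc

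The other genes with the largest differences among those lower with Yijin-tang were of mixed function. SLC22A3, a transporter of organic cations such as biogenic amines, was at 8.69, 7.71 and 8.44 CPM with Yijin-tang, against 18.5 and 22.4 CPM with Soshiho-tang (-1.30 ± 0.11, adjusted p = 1.26e-11). ADGRF1, an adhesion receptor coupled to G proteins, was at 51.9, 49.5 and 53.8 CPM with Yijin-tang, against 111 and 109 CPM with Soshiho-tang (-1.09 ± 0.11, adjusted p = 2.95e-09). The kinase PIM1, a survival factor induced by cytokines, differed by -0.99 ± 0.13. LRRN4, a leucine-rich repeat protein of the membrane, differed by -1.08 ± 0.22, with 8.36 CPM in replicate 2 and 5.30 CPM in replicate 3 of Soshiho-tang against 3.84, 3.01 and 2.72 CPM with Yijin-tang, and its adjusted p was 0.146 without replicate 2 of Soshiho-tang.

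**Figure D2:**
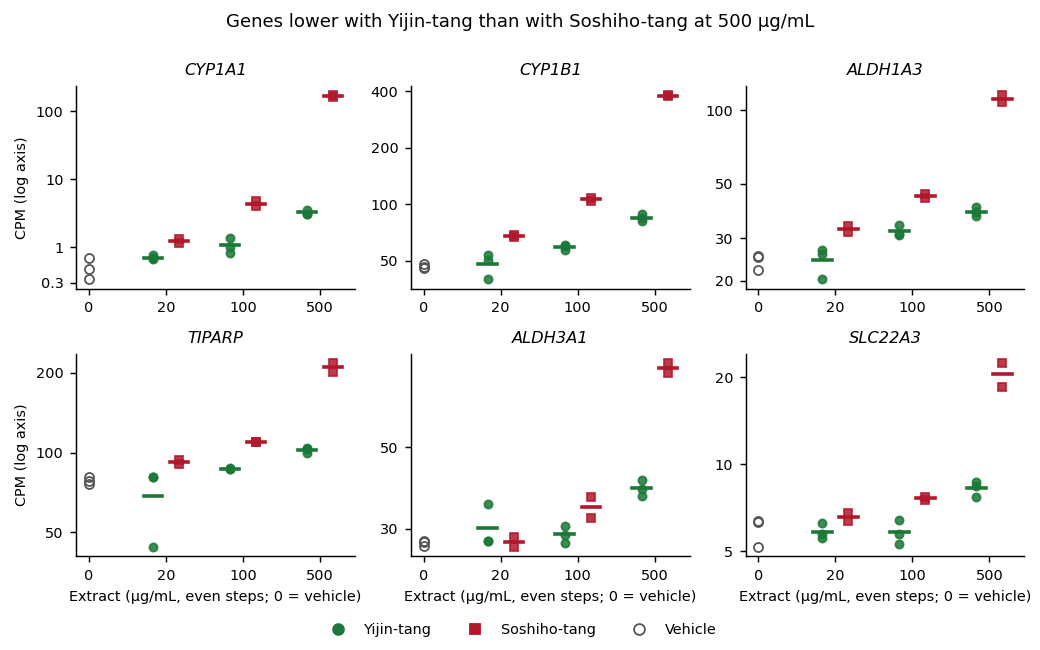
CPM on a log axis of 6 genes that were lower with Yijin-tang, by extract concentration in even steps (0 is the vehicle), with 1 point per library and a bar at the mean. At 500 µg/mL every Yijin-tang point (green) lies under both Soshiho-tang points (red), as for CYP1A1 at 3.10 to 3.57 CPM with Yijin-tang against 163 and 172 CPM with Soshiho-tang. This separation is a condition of the call.

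NRF2 targets followed, with smaller gaps. HMOX1, which breaks down heme, was at 14.9, 11.2 and 12.5 CPM with Yijin-tang, against 22.8 and 27.3 CPM with Soshiho-tang and 10.8 to 11.7 CPM in the vehicle (-0.96 ± 0.11 between the extracts, adjusted p = 2.97e-08). Thioredoxin reductase TXNRD1 was at 404, 419 and 447 CPM with Yijin-tang, against 571 and 613 CPM with Soshiho-tang and 307 to 341 CPM in the vehicle (-0.48 ± 0.07, adjusted p = 7.96e-06). In both genes the Soshiho-tang libraries were the high ones, and the Yijin-tang libraries of TXNRD1 lay between them and the vehicle. Of 19 genes of redox control, heme and NADPH supply, 11 were called lower and 0 higher with Yijin-tang, and all 19 had a log2 difference below 0 (median -0.36). The other called members included OSGIN1 at -0.63 ± 0.08, the iron store FTH1, the autophagy receptor SQSTM1, the sulfiredoxin SRXN1, the heme transporter SLC48A1, TRIM16, and the NADPH-related enzymes TKT and ME1. With a fold change of at least 1.5 added 2 of the 19 were called, and in a fit of library set 8 alone 2. Without Soshiho-tang replicate 3 the count of called members was 7. FTH1 was one of those lost, with an adjusted p of 0.426, and it was also lost without Yijin-tang replicate 2 (0.109) or replicate 3 (0.124).

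Genes that bring in cystine and make glutathione included 5 that were lower as well. SLC7A11, the cystine importer, was at 171, 188 and 194 CPM with Yijin-tang, against 309 and 293 CPM with Soshiho-tang and 98.5 to 132 CPM in the vehicle (-0.71 ± 0.11 between the extracts, adjusted p = 1.27e-05). The Yijin-tang libraries again lay between those of Soshiho-tang and the vehicle. GCLM and GCLC, the modifier and the catalytic subunit of glutamate-cysteine ligase, differed by -0.57 ± 0.09 and -0.31 ± 0.06. Of 12 genes 5 were called lower and 0 higher, which besides these 3 were SLC3A2, the partner chain of SLC7A11, and the glutathione-degrading enzyme CHAC1, and the count was 5 with each library left out, though CHAC1 was lost without Soshiho-tang replicate 3 (adjusted p = 0.298). The count was 3 in a fit of the 5 compared libraries and 0 in a fit of library set 8 alone. With a fold change of at least 1.5 added it was 2. SLC7A11, SLC3A2 and CHAC1 are also counted below among ATF4 targets. The aldo-keto reductase AKR1B10, which reduces reactive aldehydes, was the single called member of 7 in its family and was at 138, 136 and 144 CPM with Yijin-tang, against 199.7 and 239.9 CPM with Soshiho-tang (-0.66 ± 0.09, adjusted p = 2.71e-06). NFE2L2, which encodes NRF2 itself, differed by -0.20 and its partner gene MAFK by -0.18, both called, and both were picked for mention after their values were seen.

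Cholesterol genes differed in 1 direction throughout. All 26 genes of cholesterol synthesis and uptake had a log2 difference below 0 (median -0.34), against 8622 of all 16890 genes tested. Of the 26, 15 were called lower with Yijin-tang and 0 higher. With a fold change of at least 1.5 added 0 of them were called, and in a fit of library set 8 alone 3. SQLE, squalene epoxidase, was at 675, 668 and 654 CPM with Yijin-tang, against 913 and 1005 CPM with Soshiho-tang and 674 to 703 CPM in the vehicle (-0.53 ± 0.04 between the extracts, adjusted p = 2.4e-12). INSIG1, which holds SREBP in the endoplasmic reticulum, was at 112, 115 and 111 CPM with Yijin-tang, against 147 and 169 CPM with Soshiho-tang and 118 to 128 CPM in the vehicle (-0.49 ± 0.06, adjusted p = 9.46e-08). For these 2 genes Soshiho-tang was the group away from the vehicle. Against the vehicle SQLE differed by -0.05 ± 0.04 with Yijin-tang (adjusted p = 0.754) and by 0.48 ± 0.04 with Soshiho-tang (adjusted p = 1.49e-11), and both values share the same 3 vehicle libraries.

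The called cholesterol genes covered the pathway from its entry to its end. They included HMGCS1, which makes HMG-CoA, the mevalonate enzymes MVK and MVD, IDI1, LSS, which closes the sterol ring, CYP51A1, MSMO1, SC5D and DHCR7. Without Soshiho-tang replicate 3, 7 of the 26 were called, and without the low dose library that stood apart, 23. Genes of fatty acid synthesis, which SREBP1 drives, gave 1 called gene of 14, the acetyl-CoA synthetase ACSS2 at -0.59 ± 0.09. Of 7 targets of LXR, the receptor that senses surplus sterol, the cholesterol exporter ABCA1 was called higher with Yijin-tang, at 4.93, 5.50 and 4.82 CPM against 3.13 and 3.11 CPM with Soshiho-tang (0.70 ± 0.19, adjusted p = 0.0275), and its adjusted p was 0.265 without Soshiho-tang replicate 3, 0.115 without Soshiho-tang replicate 2 and 0.113 without Yijin-tang replicate 2.

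**Figure D3:**
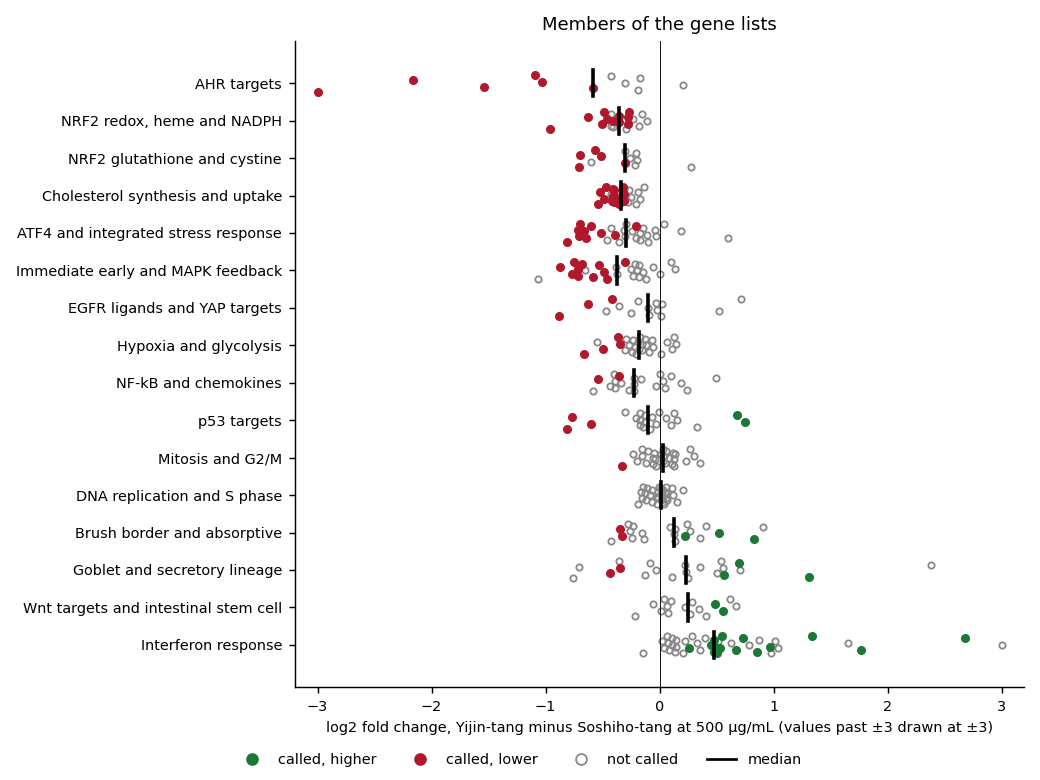
Log2 fold changes (Yijin-tang minus Soshiho-tang at 500 µg/mL) of the tested members of 16 gene lists, with called genes filled, other genes open and a bar at each list's median; CYP1A1 and XAF1 lie past the axis and are drawn at its ends. The 26 cholesterol genes all lie left of 0, 40 of the 41 interferon genes lie right of 0, and the 32 genes of DNA replication hold no called gene.

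ATF4 and the integrated stress response shared the direction. Of 28 genes 10 were called lower with Yijin-tang and 0 higher, with a median of -0.30. GDF15, a secreted stress cytokine, was at 45.7, 45.7 and 44.3 CPM with Yijin-tang, against 74.1 and 84.7 CPM with Soshiho-tang (-0.81 ± 0.15, adjusted p = 0.000338). TRIB3, a pseudokinase that restrains ATF4, was at 37.7, 37.6 and 40.5 CPM with Yijin-tang, against 59.2 and 57.8 CPM with Soshiho-tang (-0.60 ± 0.09, adjusted p = 1.03e-05). The lack of overlap between the groups in both genes is a condition of the call. The phosphatase subunit PPP1R15A, which restores translation, ATF3, DDIT4, the glutamine transporter SLC1A5 and asparagine synthetase ASNS were called too. Chaperones of the endoplasmic reticulum, which mark the unfolded protein response, had 0 of 18 called. Of these chaperones 17 had a log2 difference below 0 (median -0.12). Aminoacyl-tRNA synthetases had 2 of 20 called, MARS1 and YARS1, both at -0.18. Neither was called in a fit of the 5 compared libraries. Without Soshiho-tang replicate 3, 5 of the 28 ATF4 genes were called, and ATF3 and DDIT4 were not among them (adjusted p = 0.359 and 0.249). ATF3 was also lost without Yijin-tang replicate 1 (0.0717) or replicate 2 (0.0606).

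Immediate early genes, which growth factors switch on through MAP kinases, held 11 genes called lower with Yijin-tang. The transcription factor FOS was at 15.0, 15.3 and 15.9 CPM with Yijin-tang, against 23.2 and 28.3 CPM with Soshiho-tang and 20.5 CPM or more in the vehicle (-0.75 ± 0.12 between the extracts, adjusted p = 3.27e-05). EGR1 was at 32.5, 32.3 and 33.3 CPM with Yijin-tang, against 54.0 and 50.7 CPM with Soshiho-tang (-0.68 ± 0.14, adjusted p = 0.00229). In both genes the Yijin-tang libraries lay below the vehicle libraries. At the lower doses all libraries of both extracts did too, at 13.3 to 18.9 CPM for FOS and 20.8 to 39.1 CPM for EGR1. Soshiho-tang at the high dose lay above all other libraries of the extracts in both genes. The part of the library set in the gaps to the vehicle was not tested. FOSL1 at -0.71 ± 0.14 and the MAP kinase phosphatase DUSP5 at -0.88 ± 0.14 were likewise lower. Of 27 genes tested 11 were called lower and 0 higher (median -0.38), the others being JUN, JUNB, IER2, IER3, DUSP4, PHLDA1 and ATF3, and 6 were called without Soshiho-tang replicate 3.

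Ligands of the EGF receptor, which can start that response, included 3 called genes. EREG, epiregulin, was at 88.4, 103 and 98.6 CPM with Yijin-tang, against 177 and 179 CPM with Soshiho-tang and 81.0 to 107 CPM in the vehicle (-0.88 ± 0.09, adjusted p = 1.63e-09). AREG, amphiregulin, differed by -0.62 ± 0.17 and TGFA by -0.42 ± 0.09. Of these, EREG alone was called with every library left out in turn. Without Soshiho-tang replicate 3, AREG had an adjusted p of 0.335 and TGFA of 0.124, and AREG was also lost without Soshiho-tang replicate 2 (0.0539), Yijin-tang replicate 1 (0.127) or Yijin-tang replicate 2 (0.0724). The other 12 tested genes of that list, among them the YAP targets CCN1 and CCN2, were not called.

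Of 27 hypoxia and glycolysis genes 4 were called lower with Yijin-tang (14.8%, against 1.85% of all genes tested). In this list 22 genes had a log2 difference below 0 (median -0.18). Cell cycle genes gave few calls. SLC2A1, the glucose transporter GLUT1, was at 521, 491 and 501 CPM with Yijin-tang, against 776 and 822 CPM with Soshiho-tang and 478 to 511 CPM in the vehicle (-0.66 ± 0.04, adjusted p = 3e-14). TXNIP, which holds back glucose uptake, ran the other way, at 47.8, 54.0 and 52.5 CPM with Yijin-tang against 31.5 and 38.7 CPM with Soshiho-tang (0.55 ± 0.06, adjusted p = 6.74e-08). Beside SLC2A1, 3 of 27 hypoxia and glycolysis genes were called, all lower, and they were PFKP, ALDOC and ENO2, and without Soshiho-tang replicate 3 the count was 2, with PFKP and ALDOC lost. ENO2 was lost without Soshiho-tang replicate 2 (adjusted p = 0.0721). Among 28 genes of mitosis 1 was called, CDC25B at -0.33 ± 0.07, and among 32 of DNA replication 0, with medians of 0.03 and 0.01.

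Targets of p53 were split. CDKN1A, the cell cycle inhibitor p21, was at 11.6, 11.0 and 12.2 CPM with Yijin-tang, against 17.4 and 21.8 CPM with Soshiho-tang (-0.76 ± 0.10, adjusted p = 2.72e-07), and GDF15 and PLK3 were lower with it. SESN1, sestrin 1, was at 24.4, 25.8 and 23.6 CPM with Yijin-tang, against 15.5 and 15.2 CPM with Soshiho-tang and 25.1 to 26.8 CPM in the vehicle (0.68 ± 0.06, adjusted p = 9.11e-11). BTG2, an antiproliferative factor, differed by 0.75 ± 0.09. The 5 called genes of 22 thus went both ways, and the list's median of -0.10 lay close to that of all genes. MDM2, the ubiquitin ligase of p53, was at 61.3, 63.1 and 62.0 CPM with Yijin-tang, against 60.5 and 64.0 CPM with Soshiho-tang, and was not called.

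Genes of the interferon response made up the main group called higher with Yijin-tang among the lists. Interferon signals through a complex that contains IRF9 and binds to a repeat of GAAA in the promoters of antiviral genes. MX1, an antiviral GTPase (ENSG00000157601, chromosome 21, 41420304 to 41459214, plus strand), was at 7.60, 4.94 and 5.76 CPM with Yijin-tang, against 2.71 and 2.19 CPM with Soshiho-tang and 3.00 to 3.71 CPM in the vehicle (1.34 ± 0.28 between the extracts, adjusted p = 0.00223). IRF9 itself was at 13.7, 8.23 and 9.33 CPM with Yijin-tang, against 5.13 and 5.52 CPM with Soshiho-tang and 5.99 to 8.20 CPM in the vehicle (0.97 ± 0.19, adjusted p = 0.00068). In both genes Yijin-tang replicate 1 was the highest of these libraries. All 3 Yijin-tang libraries lay above the vehicle libraries, and both Soshiho-tang libraries lay below them. At the lower doses all libraries of both extracts also lay above the vehicle in MX1, at 3.76 to 7.95 CPM. In IRF9 they were at 7.68 to 12.9 CPM and overlapped the vehicle in part. Yijin-tang at the high dose overlapped these lower dose libraries in both genes, and Soshiho-tang at the high dose lay below them. The part of the library set in the gaps to the vehicle was not tested. Against the same vehicle libraries neither extract passed the test: MX1 differed by 0.88 ± 0.24 with Yijin-tang (adjusted p = 0.0559) and by -0.45 ± 0.29 with Soshiho-tang (0.443), and IRF9 by 0.51 ± 0.16 with Yijin-tang (0.131) and by -0.46 ± 0.19 with Soshiho-tang (0.147).

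Of 41 interferon genes tested, 15 were called higher with Yijin-tang and 0 lower, 40 had a log2 difference above 0, and the median was 0.48. The called genes included the sensors of viral RNA RIGI and IFIH1, the oligoadenylate synthetases OAS1 and OAS2, the IFIT family members IFIT2 and IFIT3, the helicase-like genes DDX60 and DDX60L, IRF9, MX1, HERC6, IFI44, PARP14 and EPSTI1. OAS1 was at 24.6, 20.0 and 21.1 CPM with Yijin-tang, against 16.9 and 15.3 CPM with Soshiho-tang (0.45 ± 0.10, adjusted p = 0.00204). HERC6, a ubiquitin ligase, was at 7.14, 5.92 and 6.48 CPM with Yijin-tang, against 4.20 and 3.71 CPM with Soshiho-tang (0.73 ± 0.13, adjusted p = 0.000163). EPSTI1 was at 0.543, 0.188 and 0.402 CPM with Yijin-tang, against 0 and 0.0951 CPM with Soshiho-tang, too low for a fold change, and it was not called without Soshiho-tang replicate 2, Yijin-tang replicate 1 or Yijin-tang replicate 3 (adjusted p = 0.223, 0.132 and 0.0631).

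The number of interferon genes called was 9 in a fit of the 5 compared libraries and 0 in a fit of library set 8 alone. This number also moved with single libraries. It was 4 without Soshiho-tang replicate 3, 9 without Soshiho-tang replicate 2, 6 without Yijin-tang replicate 1, 10 without replicate 3 and 12 without replicate 2 of Yijin-tang, and 19 without the low dose library that stood apart. Without Soshiho-tang replicate 3, MX1 had an adjusted p of 0.137 and OAS2 of 0.161, and OAS2 was also lost without Yijin-tang replicate 1 (0.0523). The part of the blood transcripts of Soshiho-tang replicate 3 in this count was not tested. Genes of antigen presentation, of which several also answer to interferon, had 0 of 14 called.

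The GAAA repeat, searched as GAAA NN GAAA (NN is any 2 bases) on both strands of the 250 bases before the first start that RefSeq lists, was found for 21 of the 33 interferon genes with a RefSeq entry (63.6%), against 3.07% of 27305 promoters. Among the 12 called genes with an entry 7 held it, and among the other 21 with an entry 14 did. The stretches around the matches of 5 called genes are shown to make the shared repeat visible, from RefSeq on GRCh38.p14, with matches in capitals, read as GAAA NN GAAA or, on the other strand, as TTTC NN TTTC. They lie at chr10:89327816-89327909 (IFIT3, plus strand), chr4:168318771-168318865 (DDX60, minus strand), chr4:168480508-168480597 (DDX60L, minus strand), chr3:122680785-122680838 (PARP14, plus strand) and chr1:78649746-78649788 (IFI44, plus strand).
IFIT3: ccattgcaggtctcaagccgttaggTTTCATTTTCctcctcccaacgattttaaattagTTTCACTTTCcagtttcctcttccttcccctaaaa
DDX60: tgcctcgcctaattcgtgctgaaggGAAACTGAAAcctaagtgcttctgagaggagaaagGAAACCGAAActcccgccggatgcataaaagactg
DDX60L: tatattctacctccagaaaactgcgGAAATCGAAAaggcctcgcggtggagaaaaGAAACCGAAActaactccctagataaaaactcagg
PARP14: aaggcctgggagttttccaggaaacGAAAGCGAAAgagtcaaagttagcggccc
IFI44: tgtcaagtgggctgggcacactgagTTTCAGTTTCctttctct

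IFIT3, DDX60 and DDX60L each hold the repeat at 2 places and PARP14 and IFI44 at 1. The stretches of DDX60L and PARP14 lie inside the genes as GENCODE 29 places them, which start further upstream. IFIT3 was at 9.00, 8.23 and 7.19 CPM with Yijin-tang, against 6.07 and 5.17 CPM with Soshiho-tang (0.55 ± 0.15, adjusted p = 0.0323). IFI44 was at 3.88, 3.53 and 4.42 CPM with Yijin-tang, against 1.87 and 2.44 CPM with Soshiho-tang (0.85 ± 0.18, adjusted p = 0.00251, and 0.0783 without Soshiho-tang replicate 2). The stretches were shown for called genes, and uncalled genes of the list also hold the repeat at 1 or more places. For the other lists searched, the NRF2 motif TGACNNNGC was found for 3 of 15 redox genes against 11% of all promoters, and the SREBP motif TCACNCCAC for 1 of 19 cholesterol genes against 0.875%.

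NOX1 and GABRP were among the genes with the largest differences higher with Yijin-tang. NOX1, the NADPH oxidase of colon epithelium (ENSG00000007952, chromosome X, 100843324 to 100874345, minus strand), was at 12.8, 13.1 and 14.9 CPM with Yijin-tang, against 5.65 and 5.30 CPM with Soshiho-tang and 13.8 to 16.5 CPM in the vehicle (1.32 ± 0.11 between the extracts, adjusted p = 3.31e-12). GABRP, the pi subunit of the GABA type A receptor (ENSG00000094755, chromosome 5, 170763350 to 170814047, plus strand), was at 11.0, 11.7 and 11.5 CPM with Yijin-tang, against 4.81 and 4.19 CPM with Soshiho-tang and 12.3 to 13.7 CPM in the vehicle (1.35 ± 0.10, adjusted p = 2.03e-12). In both genes Soshiho-tang was the low group and Yijin-tang lay near the vehicle.

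SLC38A11, an amino acid transporter of the SLC38 family, was at 10.5, 11.1 and 11.3 CPM with Yijin-tang, against 4.34 and 4.88 CPM with Soshiho-tang (1.24 ± 0.11, adjusted p = 3.42e-11). PTPRO, a receptor tyrosine phosphatase, differed by 0.97 ± 0.08, RASL11A, a small GTPase of the RAS family, by 1.06 ± 0.13, and FILIP1L by 0.92 ± 0.18. TNFSF10, the death ligand TRAIL, was at 5.20, 5.83 and 4.78 CPM with Yijin-tang, against 2.15 and 2.57 CPM with Soshiho-tang (1.14 ± 0.18, adjusted p = 4.26e-05). CHST3, a sulfotransferase of chondroitin, differed by 1.28 ± 0.23, and its adjusted p was 0.0618 without Soshiho-tang replicate 3. FILIP1L had 0.0522 in the same setting.

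Goblet and secretory genes of the gut gave single calls, not a common direction. ATOH1, the transcription factor that commits cells to the secretory lineage, was at 3.88, 4.37 and 2.86 CPM with Yijin-tang, against 1.40 and 1.55 CPM with Soshiho-tang and 3.03 to 4.21 CPM in the vehicle (1.31 ± 0.18, adjusted p = 1.3e-06). BCAS1 and the granule protein SYTL2 were higher by 0.57 ± 0.06 and 0.69 ± 0.15. SPDEF and KLF4, factors of goblet cell maturation, were lower by comparison, at -0.35 ± 0.10 and -0.43 ± 0.12. Of 21 goblet and secretory genes 3 were thus higher and 2 lower with Yijin-tang. SPDEF and KLF4 were called in neither fit with a single Soshiho-tang library and not without Yijin-tang replicate 2 or 3, SYTL2 had an adjusted p of 0.121 without Soshiho-tang replicate 3, and mucin genes had 0 of 12 called.

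Absorptive genes were split as well, whereas 14 of 16 Wnt and stem cell genes had a log2 difference above 0 (median 0.25). SLC5A1, the sodium-glucose cotransporter of the brush border, was at 9.00, 8.23 and 8.93 CPM with Yijin-tang, against 4.85 and 4.95 CPM with Soshiho-tang (0.83 ± 0.13, adjusted p = 3.33e-05), and carbonic anhydrase CA2 and villin VIL1 were higher by 0.52 ± 0.11 and 0.23 ± 0.06. The surface keratin KRT20 was at 250.3, 222 and 237 CPM with Yijin-tang, against 315 and 288 CPM with Soshiho-tang (-0.35 ± 0.05, adjusted p = 1.58e-05), and the vitamin D receptor VDR was lower by comparison at -0.33 ± 0.07. Of 16 Wnt and stem cell genes EPHB3 at 0.49 ± 0.12 and PROM1 at 0.56 ± 0.11 were called higher, and neither was called without Soshiho-tang replicate 3 (adjusted p = 0.351 and 0.0909). VIL1 was not called without either Soshiho-tang library (0.167 and 0.082) or without Yijin-tang replicate 3 (0.0586).

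Of 13 secreted defence genes 2 were called higher with Yijin-tang (15.4%), and of 21 NF-kB and chemokine genes 2 lower (9.52%). Over all genes tested the shares were 1.43% higher and 1.85% lower. PIGR, which carries IgA across the epithelium, was at 2.06, 2.07 and 2.32 CPM with Yijin-tang, against 1.07 and 0.729 CPM with Soshiho-tang and 0.300 to 0.626 CPM in the vehicle (1.27 ± 0.34, adjusted p = 0.0231, 0.436 without Soshiho-tang replicate 3 and 0.0753 without Yijin-tang replicate 3). At the lower doses PIGR was at 1.28 to 2.87 CPM in the libraries of both extracts. Soshiho-tang at the high dose was thus the lowest extract group in PIGR, though above the vehicle. The part of the library set in the gap to the vehicle was not tested. The neutrophil chemokine CXCL1 was at 19.6, 21.3 and 16.3 CPM with Yijin-tang, against 17.5 and 25.0 CPM with Soshiho-tang and at most 2.38 CPM in the vehicle. The libraries of the extracts overlapped, and the difference of -0.16 ± 0.20 (adjusted p = 0.826) has an error wide enough for a gap of either sign. Of 21 NF-kB and chemokine genes NFKB2 and BCL3, both subunits or cofactors of NF-kB, were called lower with Yijin-tang, at -0.35 ± 0.08 and -0.54 ± 0.14, and without Soshiho-tang replicate 3 neither was called (adjusted p = 0.0854 and 0.0844). BCL3 was also lost without Soshiho-tang replicate 2 (0.0943) or Yijin-tang replicate 2 (0.0661).

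**Figure D4:**
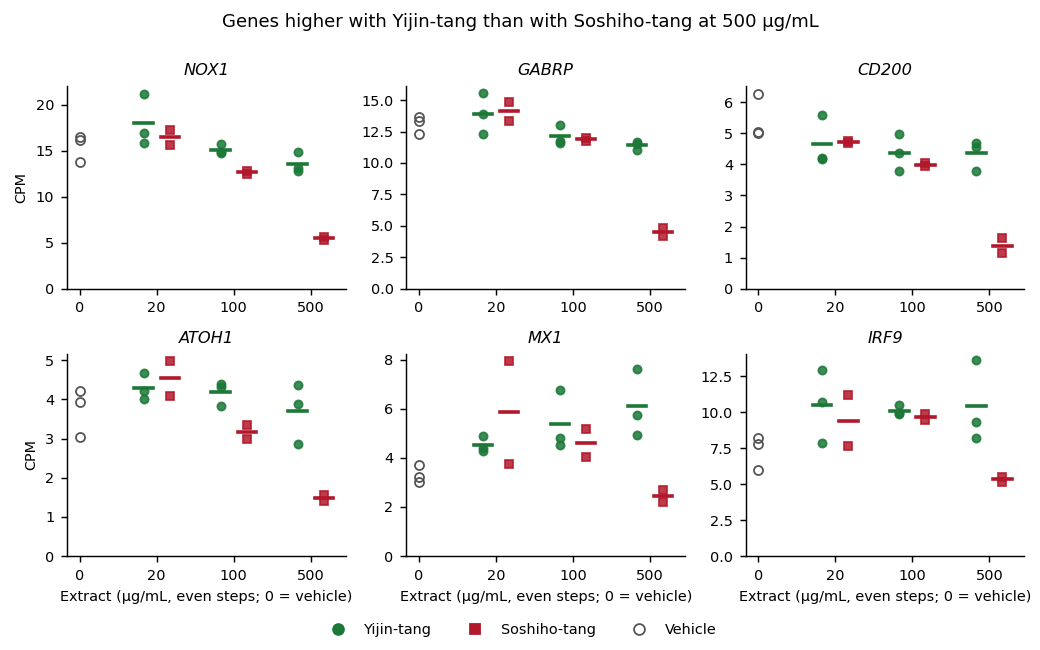
CPM of 6 genes that were higher with Yijin-tang, by extract concentration in even steps (0 is the vehicle), with 1 point per library and a bar at the mean. At 500 µg/mL the Soshiho-tang points (red) of NOX1, GABRP, CD200 and ATOH1 lie under the Yijin-tang points (green) and under the vehicle (open). At this concentration MX1 and IRF9 have Yijin-tang points above the vehicle and Soshiho-tang points below it. At the lower concentrations all points of both extracts lie above the vehicle in MX1, and most do in IRF9.

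Housekeeping lists held no called gene. Genes of the proteasome (31 tested, median -0.14), of the nuclear-encoded respiratory chain (36, median -0.12) and of cytosolic ribosomal proteins (58, median -0.12) had 0 called, although 30, 32 and 53 of them had a log2 difference below 0. Metallothioneins and zinc genes (9) and drug efflux pumps and PXR targets (10) also had 0. Of 14 heat shock chaperones HSPA1B was called lower at -0.25 ± 0.06 (adjusted p = 0.102 without Soshiho-tang replicate 3), and of 28 autophagy and lysosome genes SQSTM1, the protease CTSD and the sterol transporter NPC1 were, though NPC1 lost its call with any 1 of the 5 libraries left out (adjusted p from 0.0653 to 0.181) and CTSD with Soshiho-tang replicate 2, Yijin-tang replicate 2 or Yijin-tang replicate 3 left out (0.282, 0.18 and 0.0647). Of the 4 leukocyte markers tested CORO1A, an actin regulator, was called, at 6.44, 5.64 and 6.43 CPM with Yijin-tang against 8.78 and 8.24 CPM with Soshiho-tang, and its adjusted p was 0.0629 without Soshiho-tang replicate 2. With Soshiho-tang replicate 3 as the only Soshiho-tang library, 13 leukocyte markers were called lower with Yijin-tang, and with replicate 2 as the only one, 1 was.

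At 100 µg/mL the extracts differed in 3 of the 16890 genes tested (0.0178%), all lower with Yijin-tang, and all in the AHR battery. These were CYP1A1, CYP1B1 and ALDH1A3. CYP1A1 was at 1.02, 0.832 and 1.36 CPM with Yijin-tang, against 4.74 and 3.99 CPM with Soshiho-tang (-2.03 ± 0.16, adjusted p = 4.86e-11). CYP1B1 was at 57.0, 60.6 and 59.8 CPM with Yijin-tang, against 105 and 108 CPM with Soshiho-tang (-0.85 ± 0.07, adjusted p = 4.86e-11), and ALDH1A3 at 30.9, 31.2 and 33.9 CPM against 45.5 and 43.7 CPM (-0.48 ± 0.07, adjusted p = 0.000677). Of the 555 genes called at 500 µg/mL, 411 had a difference of the same sign at 100 µg/mL, against 8945 of all 16890 genes, and 3 passed the test there. At 20 µg/mL 266 of the 555 had the same sign and 2 passed. Without replicate 3 of Soshiho-tang at 100 µg/mL, 5 genes passed.

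The other groups showed little of their high dose gap at 100 µg/mL. NOX1 was at 14.9, 15.7 and 14.7 CPM with Yijin-tang, against 12.8 and 12.4 CPM with Soshiho-tang. IRF9 was at 10.5, 9.89 and 9.94 CPM with Yijin-tang, against 9.43 and 9.86 CPM with Soshiho-tang. Both differences were smaller than at 500 µg/mL, at 0.26 ± 0.10 and 0.07 ± 0.18, and neither passed the test. The median difference of the 26 cholesterol genes was 0.01, that of the 19 redox genes 0.01, that of the 41 interferon genes 0.09 and that of the 27 immediate early genes -0.06, and 0 members of these 4 lists were called.

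At 20 µg/mL 6 genes passed the test (0.0355%), 4 higher (0.0237%) and 2 lower (0.0118%) with Yijin-tang, and the count moved with the library that stood apart: without Yijin-tang low dose replicate 2 it was 1, and with that library kept it was 6311 without replicate 1 and 6368 without replicate 3 of Yijin-tang. Without replicate 2 or 3 of Soshiho-tang at this dose it was 1 and 0, with 3066 and 2711 genes at an unadjusted p under 0.05 by the same edgeR test. CYP1B1 was at 54.1, 39.9 and 50.3 CPM with Yijin-tang, against 66.9 and 68.6 CPM with Soshiho-tang (-0.49 ± 0.07, adjusted p = 0.000359). ALDH1A3 was at 26.8, 20.3 and 25.8 CPM with Yijin-tang, against 33.6 and 31.9 CPM with Soshiho-tang (-0.43, adjusted p = 0.0135). In both genes the library that stood apart, replicate 2, was the lowest, and the other 2 Yijin-tang libraries also lay under both Soshiho-tang libraries. With replicate 2 left out 1 gene in all passed the test, so at most 1 of these 2 genes kept its pass. CYP1A1 was at 0.662, 0.687 and 0.764 CPM with Yijin-tang, against 1.14 and 1.31 CPM with Soshiho-tang (-0.79 ± 0.22, adjusted p = 0.0646), which did not pass. Over the 3 doses the CYP1A1 difference was -0.79 at 20, -2.03 at 100 and -5.68 at 500 µg/mL.

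**Figure D5:**
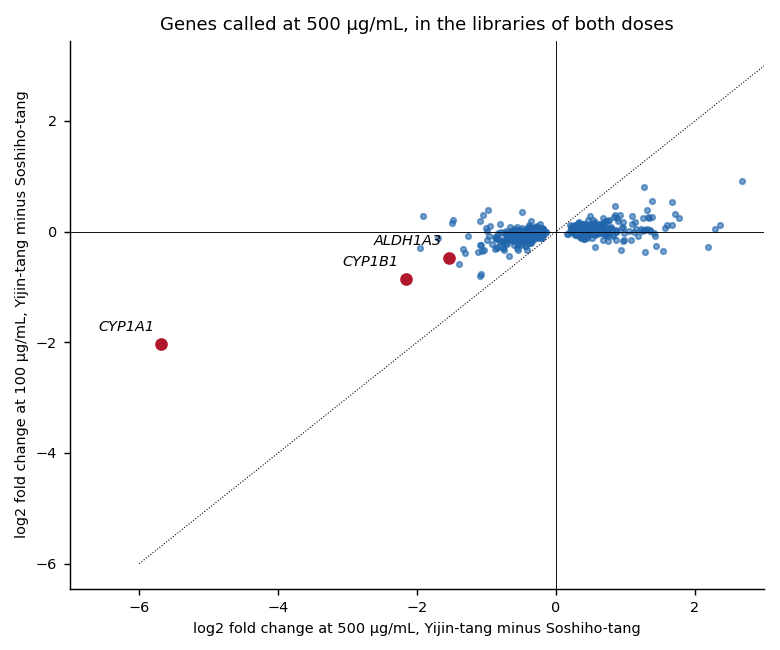
Log2 fold changes (Yijin-tang minus Soshiho-tang) of the 555 genes called at 500 µg/mL, placed by their value at 500 µg/mL (horizontal) and at 100 µg/mL (vertical), with the dotted diagonal marking equal values. CYP1A1, CYP1B1 and ALDH1A3 (red) are the 3 genes past the test at 100 µg/mL, at -2.03, -0.85 and -0.48, and the other genes lie within 1 log2 unit of 0 on the vertical axis.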

How the data were processed

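HT29 cells had been treated with herbal extracts or vehicle, and messenger RNA was read as pairs of 100 bp, per the labels' protocols. The values are expected counts per gene that the authors deposited, with FastQC 0.11.9, Trim Galore 0.6.5, STAR 2.7.3a, RSEM 1.3.3 and GRCh38 named in the submitters' processing notes; the annotation release and strand setting are not given in the sources used here, so reads of overlapping antisense genes cannot be told apart. Of these counts 89.9% lay within 1e-09 of a whole number, and all were rounded. Of 60675 gene IDs 57055 had a symbol.

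Genes with low counts were removed (filterByExpr, 16890 kept), libraries were scaled by TMM, and 1 model of 54 libraries in 19 replicated groups was fitted with edgeR 4.0.16 (quasi-likelihood test, limma 3.58.1, R 4.3.3). Every adjusted p in the text is the Benjamini-Hochberg value of that test over all genes tested, standard errors are the log2 fold change divided by the square root of F, and CPM are counts relative to the library size after TMM scaling. The biological coefficient of variation was 9.71%. Calls needed the 3 conditions given in the text, with a prior count of 2 for single library differences. Genes named with values were the 10 called genes with the largest change in each direction at a mean of 5 CPM or more in 1 group, and up to 6 called genes of each list. Values of other genes, such as NFE2L2, MAFK, CD200, MDM2, CXCL1, OAS1, IFIT3 and those under other observations, were chosen after their values were seen. Some genes that these rules name are not reported here. The comparison and the 38 gene lists were chosen with earlier results of these data known. Alternatives were DESeq2 1.42.0, RLE scaling, no filter, a replicate block, other sets of libraries, a fold threshold, and each library left out in turn. Promoters and their motifs were read from RefSeq, GRCh38.p14.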

Additional observations from a re-analysis of the deposited data

How the results depend on the processing

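At 500 µg/mL the 555 called genes became 562 with RLE scaling, 628 with DESeq2, 629 by the adjusted p alone and 568 with a replicate block. The count was 180 with a fold change of at least 1.5 added, 358 with no filter on low counts (36112 genes tested, 344 shared), 269 in a fit of the 5 compared libraries (243 shared) and 85 in a fit of library set 8 alone (all 85 shared). It was 1288 without the low dose library that stood apart, and 855 without that library and Soshiho-tang replicate 3 (418 shared), an alternative chosen after seeing the data. With each of the 5 libraries left out it ran from 286 (without Soshiho-tang replicate 3) to 593 (without Soshiho-tang replicate 2, 339 shared), where a lone Soshiho-tang library is assumed to vary like the other groups. At 100 µg/mL the 3 genes became 6 with DESeq2, and 3 to 5 with a library left out. At 20 µg/mL the 6 genes became 1351 with no filter on low counts and 1643 with DESeq2, and 0 to 6368 with a library left out. The fit of set 8 alone called 5 AHR targets, 1 ATF4 gene and 3 immediate early genes lower with Yijin-tang. Causes of these shifts were not tested. Of the 88 named genes 0 reversed in 13 settings, and 32 kept an adjusted p under 0.05 in all of them. The other conditions of a call were not applied in that count, and the fold threshold was not among its settings. The most losses, 53, came in the fit of set 8 alone, against 30 without Soshiho-tang replicate 3. The replicate block left 3 genes at 100 µg/mL and 6 at 20 µg/mL. Same-numbered libraries of the 2 extracts deviated together with correlations of 0.00936 (replicate 2) and 0.150 (replicate 3), so the numbers were not shown to pair the libraries. Genes of very few counts, such as EPSTI1, have a large counting error at these depths, and the Soshiho-tang group has 2 libraries.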

Other observations

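CFTR, SLC12A2 and KCNE3, 3 genes with roles in chloride transport, were picked from the genes called higher with Yijin-tang after their values were seen. No list of such genes was tested, so they describe no group. CFTR, the chloride channel of the apical membrane, was at 137, 133 and 136 CPM with Yijin-tang, against 104 and 92.3 CPM with Soshiho-tang and 127 to 134 CPM in the vehicle (0.46 ± 0.13, adjusted p = 0.0414). SLC12A2, the cotransporter that loads the cell with chloride, was at 717, 746 and 799 CPM with Yijin-tang, against 497 and 442 CPM with Soshiho-tang (0.68 ± 0.10, adjusted p = 1.08e-05). KCNE3, the potassium channel subunit that sustains chloride secretion, was at 44.0, 41.8 and 43.4 CPM with Yijin-tang, against 25.6 and 25.6 CPM with Soshiho-tang and 50.5 to 53.5 CPM in the vehicle (0.75 ± 0.06, adjusted p = 2.03e-12). The groups did not overlap in any of the 3 genes, which the choice of called genes fixes.

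Secreted factors among the genes lower with Yijin-tang included LIF, a cytokine of the interleukin 6 family, at 24.1, 23.7 and 23.8 CPM with Yijin-tang, against 41.8 and 44.7 CPM with Soshiho-tang (-0.86 ± 0.10, adjusted p = 9.73e-08). FGF19, the hormone by which the gut restrains bile acid synthesis in the liver, was at 28.3, 30.1 and 29.3 CPM with Yijin-tang, against 49.0 and 56.5 CPM with Soshiho-tang and 32.7 to 39.5 CPM in the vehicle (-0.85 ± 0.09, adjusted p = 1.65e-08). Yijin-tang libraries lay under the vehicle libraries in FGF19 and Soshiho-tang libraries above them.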
